A study of Mus musculus with 17 samples.

Results

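The 7 genes described here carry glucose and fructose into and out of cells and start the breakdown of fructose: the membrane transporters Slc2a1, Slc2a2, Slc2a5, Slc2a7 and Slc5a1 and the enzymes Khk and Tkfc. The rule that picks them lists them by name and uses no measured value, although it was written with earlier results of these data known, and they are 7 of the 33840 gene symbols in the intestinal files and 7 of the 24594 gene identifiers in the files labelled liver. All 7 were measured in every file and passed the filter on low counts in both tissues. In the files labelled liver Slc2a7 passed it only through the day 0 and day 10 libraries, with 0 counts at day 20. The study sequenced bulk RNA from wild-type mice in 17 libraries of 7 groups, and its title ties a liver-to-gut axis and PEDF to the fitness of intestinal stem cells. The 8 intestinal libraries came from small intestine after a sham operation or after hepatectomy, in which part of the liver is cut away. Each of these was made either from IEC, intestinal epithelial cells, or from crypts, the pits at the base of the epithelium where stem cells lie, which gave 4 groups of 2 libraries: sham IEC, sham crypts, hepatectomy IEC and hepatectomy crypts. The other 9 libraries are labelled as wild-type liver with DSS as the treatment, at day 0, day 10 or day 20, with 3 libraries a day, so the day 0 group carries the DSS label too. The labels used here give no age, sex or strain, no extent of hepatectomy and no time after surgery. They do not tie each library to an animal of its own, and a p-value here covers just the scatter among these libraries, part or all of which may be technical.

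Hexoses cross membranes through carriers of a pair of families. SGLT1, encoded by Slc5a1, pulls glucose and galactose from the gut lumen into enterocytes together with sodium. GLUT5, encoded by Slc2a5, lets fructose in across the same brush border, and GLUT7, encoded by Slc2a7, is a close relative of GLUT5 found mainly in intestine. GLUT2, encoded by Slc2a2, is a high-capacity carrier that lets sugars leave the enterocyte towards the portal blood and moves glucose in and out of hepatocytes. GLUT1, encoded by Slc2a1, supplies basal glucose to many cell types and is common in growing cells. Inside the cell, ketohexokinase (Khk) phosphorylates fructose, the product is split, and triokinase (Tkfc) phosphorylates the glyceraldehyde that results. Gut and liver are the main sites of this route.

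On mm10, with GENCODE vM21 gene models, Slc2a1 lies at chr4:119108711-119137983, Slc2a5 at chr4:150119283-150144169 and Slc2a7 at chr4:150148972-150168482, all on the plus strand. The 2 fructose transporter relatives are direct neighbours, since Slc2a7 starts 4802 bases after the end of Slc2a5. Slc2a2 lies at chr3:28697903-28731359, Slc5a1 at chr5:33104219-33162870 and Khk at chr5:30921431-30931248, on the plus strand, and Tkfc lies at chr19:10587791-10605654 on the minus strand. Tkfc shares 924 exon bases with Cyb561a3 and Ddb1 on the other strand, and Slc2a1 shares 105 with the predicted gene Gm12868. No source used here states whether counting used strand, so the values of Tkfc in particular may hold reads of its neighbours.

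Because 6 of the 7 genes moved one way after hepatectomy and Slc2a1 moved the other way in crypts, the bases before their start sites were read for motifs of the carbohydrate and epithelial programmes. The sequences are those of RefSeq on GRCm38.p6, the build that mm10 is made from, for which all 7 members had an entry. The 250 bases before each start site were searched on both strands for CACGTG (an E-box, one of the pair that form a carbohydrate response element), GTTAAT (an HNF1 half-site) and TTTATG (a CDX site). The stretches shown are the 250 bases before Slc5a1 (chr5:33103969-33104218) and Slc2a2 (chr3:28697653-28697902), the highest SGLT and a GLUT with a large response in both fractions, the 216 bases before the first annotated exon base of Slc2a1 (chr4:119108495-119108710), and 30 bases of the Khk promoter (chr5:30921485-30921514) that hold its matches. All are on the plus strand, and capitals mark a motif match.
Slc5a1: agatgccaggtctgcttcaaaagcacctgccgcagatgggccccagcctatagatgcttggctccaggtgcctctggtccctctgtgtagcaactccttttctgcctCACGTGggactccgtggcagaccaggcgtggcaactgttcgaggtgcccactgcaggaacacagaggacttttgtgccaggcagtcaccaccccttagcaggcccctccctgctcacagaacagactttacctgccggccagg
Khk: cgtCACGTGacaccGTTAATctggcgcggg
Slc2a2: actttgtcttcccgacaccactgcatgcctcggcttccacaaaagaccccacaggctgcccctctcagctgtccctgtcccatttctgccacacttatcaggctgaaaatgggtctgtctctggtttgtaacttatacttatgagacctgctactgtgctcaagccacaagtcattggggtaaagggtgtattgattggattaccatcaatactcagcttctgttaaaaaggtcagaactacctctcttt
Slc2a1: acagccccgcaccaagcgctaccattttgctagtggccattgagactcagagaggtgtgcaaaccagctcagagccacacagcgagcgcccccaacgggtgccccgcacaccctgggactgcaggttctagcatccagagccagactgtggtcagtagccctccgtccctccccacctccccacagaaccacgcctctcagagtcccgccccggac
CACGTG was found once before Slc5a1, starting 143 bases before the start site, and once before Khk, starting 71 bases before it. 6.02% of the 32851 RefSeq promoters hold this motif in the same window. GTTAAT was found once, before Khk, 60 bases from the start, against 6.43% of all promoters. The RefSeq start site used for Khk, 30921559, lies after the start of its GENCODE model, 30921431. Both Khk matches thus lie inside that model, and the 122 bases of the window before it held no match. The start sites used for Slc2a1, Slc2a5 and Tkfc also lie inside their GENCODE models. That of Tkfc is 10604258, in a minus-strand model that ends at 10605654. TTTATG, which 10.8% of promoters hold, was in none of the 7 windows. No window held a pair of exact E-boxes 5 bases apart, but 0% of all promoters hold one, so its absence says nothing about these genes. Base composition varied among the genes. G and C made up 67.2% of the 250 bases before Khk, 66.4% before Slc2a1 and Slc2a5, and 60% before Slc5a1. They made up 47.2% before Slc2a2, 52.8% before Tkfc and 53.2% before Slc2a7, and the median over all promoters was 52.4%. Slc2a1, which fell in crypts, thus had the same share as Slc2a5, which rose. The group that rose after hepatectomy thus held the extremes of this range, and a motif match is a description of letters only.

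Intestinal libraries held 26609686 to 43580020 counts each, and those labelled liver 12742629 to 42669857. Marker genes were read first as a check of the labels. In sham, the crypt libraries were higher than IEC in 4 of 4 proliferation genes and lower in 8 of 8 enterocyte genes, but they were also lower in 3 of 4 genes of Paneth cells, which sit in crypts. Of 4 crypt stem cell genes 2 were higher and 1 was lower, with a median log2 fold change of -0.02. The lower one was Lgr5 (-0.38), which was at -0.02 and not called when libraries were scaled by total counts alone. The libraries labelled liver at day 0 and day 10 went against that label: 4 crypt stem cell genes summed to 8673 to 9204 CPM (counts per 1e+06) at day 0 and 3005 to 8486 at day 10, against 45.9 to 60.2 at day 20. The 8 hepatocyte genes summed to 1017 to 3071, 2041 to 5239 and 75857 to 78062 CPM on those days. Contrasts of day 20 with the earlier days therefore set libraries rich in hepatocyte genes against libraries rich in crypt genes. All 9 are called here the libraries labelled liver. Replicate 3 of day 10 stands apart from the other day 10 libraries and is described with the results it touches.

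In sham mice, all but 1 of the hexose genes were far lower in crypts than in IEC. Expression is given as TMM-normalised CPM, which scales each library by its total and by a factor that centres most genes, for replicates 1 and 2 in turn. Slc5a1 stood at 1295 and 1284 in sham IEC and at 402 and 387 in sham crypts. Slc2a5 stood at 270 in both sham IEC libraries and at 30 and 25.9 in sham crypts. Slc2a2 stood at 170 and 172 against 21.6 and 21.3. In these genes the 2 libraries of a group lay close together and the groups far apart. Slc2a7 was the scarcest member, with 10.4 and 8.17 in IEC and 2.38 and 2.02 in crypts. Khk had 446 and 439 in IEC against 130 and 125 in crypts, and Tkfc had 280 and 269 against 94.7 and 95.1. Slc2a1 ran the other way, with 27 and 25.3 in IEC and 36.6 and 35.6 in crypts. No member overlapped between the fractions, which was also true of 69.5% of all genes tested.

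The steepest differences were in the fructose entry carrier Slc2a5 and the exit carrier Slc2a2. Slc2a5 was 9.68-fold lower in sham crypts than in sham IEC (log2 fold change -3.27 ± 0.074 SE) and Slc2a2 was 7.97-fold lower (-3.0 ± 0.055). Slc2a7 (-2.09 ± 0.15), Khk (-1.80 ± 0.043), Slc5a1 (-1.71 ± 0.043) and Tkfc (-1.53 ± 0.052) followed on the log2 scale, and Slc2a1 was higher by 0.46 ± 0.069. With edgeR's quasi-likelihood test and Benjamini-Hochberg adjustment over 18207 genes, called at an adjusted p under 0.05, 1 member was higher and 6 were lower, against 19.3% of all genes in each direction. The median log2 fold change was -1.80 over the members and 0.02 over all genes. Of all calls, 50.1% were higher in crypts, and 83.2% when libraries were scaled by total counts alone. That scaling, added after the data were seen, moves the median of all genes to 0.37 on the log2 scale, and no member changed its call under it. The enterocyte markers fell together with these 6 genes: their sum was 25246 to 25777 CPM of all counts in sham IEC and 4988 to 5351 in sham crypts, with none at 0, and their part in the differences was not tested. In bulk RNA, fewer cells of a type and less RNA per cell cannot be told apart.

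**Figure D1:**
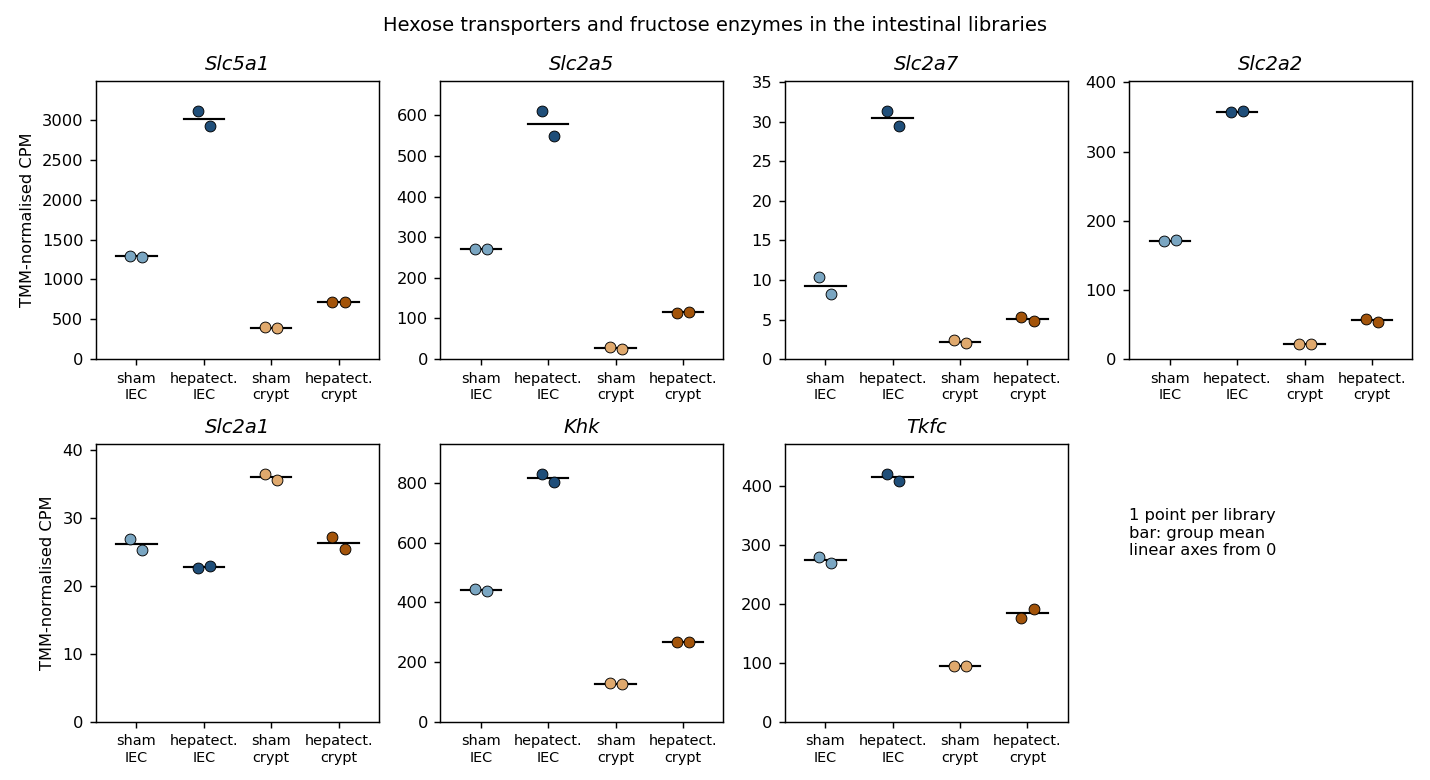
TMM-normalised CPM of the 7 genes in the 8 intestinal libraries, 1 panel per gene with its own axis from 0. Points are libraries and bars are group means, with 2 libraries per group. Slc5a1 rises from 1284 and 1295 in sham IEC to 2921 and 3115 in hepatectomy IEC, and Slc2a1 is highest in sham crypts.

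After hepatectomy, 6 of the 7 hexose genes were higher in IEC, by 1.51-fold to 3.28-fold. Slc5a1, the apical glucose carrier, reached 3115 and 2921 in hepatectomy IEC, above the 1295 and 1284 of sham. Slc2a5 reached 611 and 548 from 270 in each sham library, and Slc2a7 reached 31.4 and 29.5 from 10.4 and 8.17. Every hepatectomy IEC library thus lay above every sham IEC library in these apical carriers, and 68% of all genes tested had no overlap between these groups in one direction or the other. The basolateral carrier Slc2a2 stood at 357 and 359, from 170 and 172. Khk stood at 831 and 801, from 446 and 439, and Tkfc at 421 and 409, from 280 and 269. Only Slc2a1 was lower, at 22.7 and 23 against 27 and 25.3, and its groups did not overlap either.

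On the log2 scale, Slc2a7 rose most, by 1.72 ± 0.12 (SE; adjusted p = 2.3e-07), followed by Slc5a1 with 1.23 ± 0.042 (2.34-fold; adjusted p = 6.0e-10). Slc2a5 rose by 1.10 ± 0.066 and Slc2a2 by 1.07 ± 0.048, changes of 2.15-fold and 2.09-fold. Khk rose by 0.88 ± 0.042 (1.84-fold) and Tkfc by 0.60 ± 0.051 (1.51-fold; adjusted p = 1.6e-06), so both enzymes had smaller fold changes than these 4 carriers. The change of Slc2a1 was -0.19 ± 0.072 and did not pass (adjusted p = 0.052). In all, 6 members were called higher and 0 lower, against 19.5% of all genes called higher and 18.3% lower, and the median log2 fold change was 1.07 over the members and 0.02 over all genes. Of all calls 51.5% were higher, and 25.7% when scaled by total counts, which moves the median of all genes to -0.191. Under that scaling the 6 genes were still called higher and Slc2a1 was called lower (-0.41, adjusted p = 0.0012). Slc2a1 was also called lower with no filter on low counts (adjusted p = 0.021) and without replicate 1 of sham crypts (0.037), replicate 1 of hepatectomy crypts (0.038) or replicate 2 of hepatectomy crypts (0.037).

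In crypts the same 6 genes were higher after hepatectomy and Slc2a1 was lower. The fructose carrier Slc2a5 stood at 30 and 25.9 in sham crypts and at 114 and 117 after hepatectomy. Slc2a2 went from 21.6 and 21.3 to 57.8 and 53.7, and Slc5a1 from 402 and 387 to 722 and 721. The scarce Slc2a7 had 2.38 and 2.02 in sham and 5.35 and 4.8 after hepatectomy. In all 4 carriers the hepatectomy crypts still lay below the sham IEC level. Khk had 130 and 125 in sham crypts and 268 and 266 after hepatectomy. Tkfc had 94.7 and 95.1 and then 176 and 192. Slc2a1 dropped from 36.6 and 35.6 to 27.3 and 25.4, close to its level in IEC.

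Slc2a5 had the largest change of the 7 in crypts, 4.14-fold higher (log2 fold change 2.05 ± 0.072 SE, adjusted p = 1.3e-09). Slc2a2 was 2.6-fold higher (1.38 ± 0.054) and Slc2a7 2.31-fold (1.21 ± 0.15; adjusted p = 7.9e-05). Khk was 2.09-fold higher (1.07 ± 0.043), Tkfc 1.94-fold (0.96 ± 0.052) and Slc5a1 1.83-fold (0.87 ± 0.042). Slc2a1 was 1.37-fold lower (-0.45 ± 0.067, adjusted p = 2.5e-04). With 6 members called higher and 1 lower, the background was 19.2% of all genes higher and 18.3% lower, and the median log2 fold change was 1.07 over the members against 0.01 over all genes. Of all calls 51.2% were higher, and 15.9% when scaled by total counts, which moves the median of all genes to -0.314. Under that scaling all 7 members kept their calls, with Slc2a5 at 1.73, Slc2a2 at 1.06, Slc5a1 at 0.55 and Slc2a1 at -0.78 on the log2 scale.

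**Figure D2:**
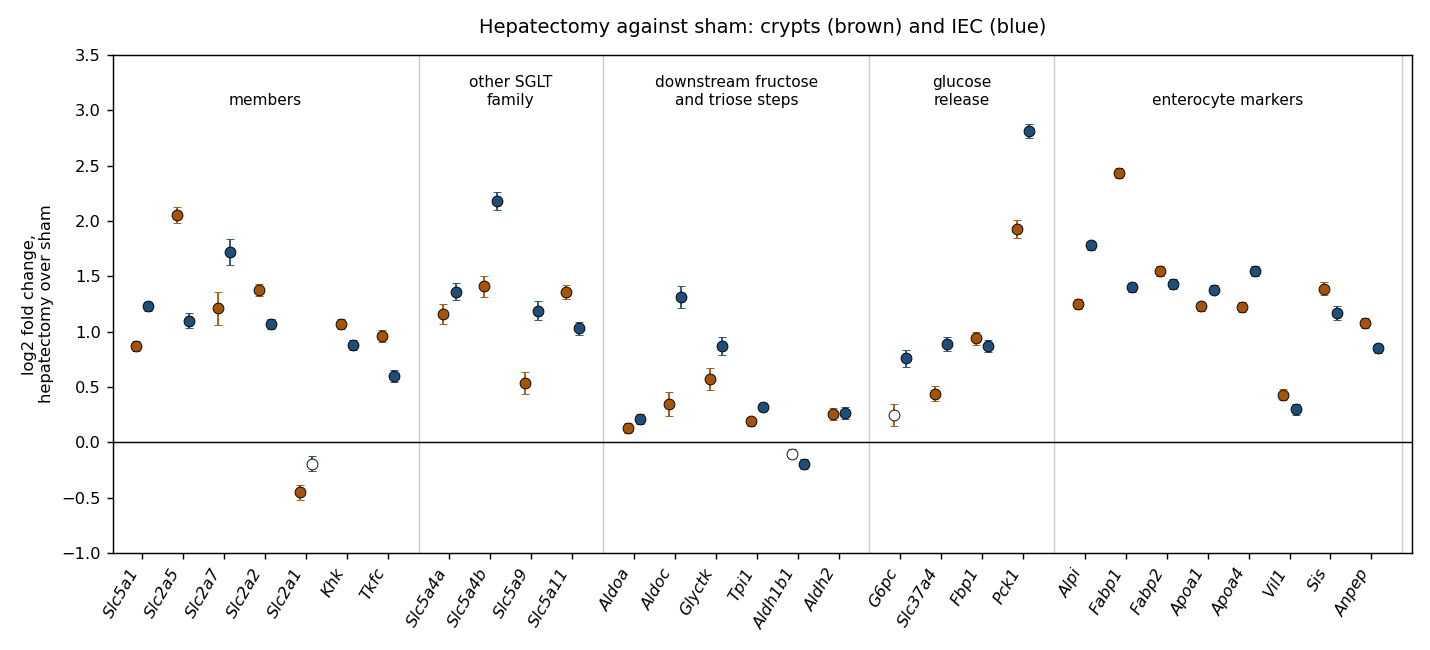
Log2 fold change of hepatectomy against sham with its SE, on the vertical axis, for the 7 genes and genes of related groups (other SGLT genes, later fructose and triose steps, glucose release and enterocyte markers), brown for crypts and blue for IEC. Open points did not pass the test. Slc2a5 lies higher in crypts (2.05) than in IEC (1.10), and Slc5a1 higher in IEC (1.23) than in crypts (0.87).

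The hepatectomy effect differed between the fractions for several carriers, as tested by the interaction term of the same fit (crypts minus IEC, on the log2 scale). It was larger in crypts for Slc2a5, by 0.95 ± 0.096 (SE; adjusted p = 4.5e-05), for Tkfc, by 0.36 ± 0.072 (adjusted p = 0.0047), and for Slc2a2, by 0.31 ± 0.072 (adjusted p = 0.01). It was larger in IEC for Slc5a1, with a difference of -0.36 ± 0.059 (adjusted p = 0.0013). The fructose carrier and the sodium-glucose carrier of the same membrane thus shifted in opposite order between the fractions. The difference for Khk was 0.18 ± 0.059 (adjusted p = 0.049), and those for Slc2a7 (-0.50 ± 0.2, adjusted p = 0.096) and Slc2a1 (-0.26 ± 0.099, adjusted p = 0.088) did not pass. In total 4 members were called with a larger log2 change in crypts and 1 with a smaller one, against 9.15% and 10.1% of all genes. Of all calls 47.6% were positive, and 29.5% when scaled by total counts. Under that scaling the calls of Slc2a2 (0.21, adjusted p = 0.16), Tkfc (0.25, adjusted p = 0.072) and Khk (0.08, adjusted p = 0.61) were lost and Slc2a1 was called (-0.37, adjusted p = 0.042). Slc2a5 and Slc5a1 kept their calls. Slc2a1 was also called with the stricter filter (adjusted p = 0.033), and Slc2a7 without replicate 1 of sham IEC (-0.69, adjusted p = 0.037). The call of Khk was also lost with DESeq2 (adjusted p = 0.062), with a stricter filter (0.084), and without replicate 1 of sham IEC (0.16), replicate 2 of sham IEC (0.1), replicate 2 of sham crypts (0.13), replicate 2 of hepatectomy IEC (0.13), replicate 1 of hepatectomy crypts (0.082) or replicate 2 of hepatectomy crypts (0.076).

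After hepatectomy, crypts remained lower than IEC in the same 6 genes as in sham. These comparisons share their libraries with those above, so their values are given side by side only. Slc2a5 was lower in crypts by 5.01-fold after hepatectomy (log2 fold change -2.33 ± 0.068 SE; -3.27 in sham) and Slc2a2 by 6.42-fold (-2.68 ± 0.052; -3.0 in sham). Slc5a1 was at -2.06 ± 0.043 (-1.71 in sham), Slc2a7 at -2.59 ± 0.12 (-2.09), Khk at -1.61 ± 0.043 (-1.80) and Tkfc at -1.17 ± 0.051 (-1.53). Slc2a1 was higher in crypts by 0.20 ± 0.07 (adjusted p = 0.029). That made 1 member higher and 6 lower, against 26.3% and 25.6% of all genes, with a median log2 fold change of -2.06 over the members and 0.01 over all genes. Of all calls 50.6% were higher in crypts, and 70.3% when scaled by total counts. The call of Slc2a1 was lost with DESeq2 (adjusted p = 0.1), with the stricter filter (0.075) and with only the compared groups fitted (0.06), and without replicate 1 of hepatectomy IEC (0.11), replicate 2 of hepatectomy IEC (0.082) or replicate 1 of hepatectomy crypts (0.13).

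Genes around the 7 moved in part with them. The other SGLT family genes were the most uniform: 4 of 4 tested were higher after hepatectomy in both fractions. Slc5a4b, an SGLT3 gene, changed by 1.41 in crypts and 2.18 in IEC on the log2 scale, Slc5a4a by 1.16 and 1.36, the inositol carrier gene Slc5a11 by 1.36 and 1.03, and Slc5a9 by 0.54 and 1.19. Under total-count scaling Slc5a9 in crypts was 0.21 and not called, leaving 3 of 4. The other GLUT genes did not follow them: of 6 tested, 1 was higher and 1 lower in each fraction. Slc2a9, a urate carrier, was higher by 0.83 in crypts and 1.02 in IEC, while Slc2a10 was lower in crypts (-0.66) and Slc2a13 in IEC (-1.18). Atp1b1, a subunit gene of the pump that keeps up the sodium gradient SGLT1 uses, was higher by 0.50 in crypts (0.18 and not called under total-count scaling) and 0.82 in IEC.

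Among the later steps of fructose breakdown, 5 of 6 genes were called higher in crypts and 5 of 6 in IEC, with Aldh1b1 lower in IEC (-0.19). Their median log2 fold changes were 0.22 and 0.3, against 1.07 for the 7 hexose genes in each fraction. Glyctk, which phosphorylates glycerate, was higher by 0.57 in crypts and 0.87 in IEC, and the aldolase gene Aldoc by 0.35 and 1.31. This group depends on the scaling: with total counts, 0 genes of 6 were higher and 2 lower in crypts, Aldoa moved from 0.13 to -0.19, Tpi1 to -0.13 and Aldh2 to -0.07, and 2 were higher and 1 lower in IEC. Genes of glucose release were higher in 3 of 4 cases in crypts and 4 of 4 in IEC. Pck1, a gluconeogenic enzyme, rose by 1.93 and 2.81, Fbp1 by 0.94 and 0.87, and the glucose 6-phosphate carrier gene Slc37a4 by 0.44 and 0.89. G6pc, which frees glucose, was at 0.25 in crypts (-0.07 under total counts), not called, and rose by 0.76 in IEC. With total counts 2 of 4 were called in crypts and 4 of 4 in IEC.

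The hexokinases, which phosphorylate glucose, split. Hk1 was lower in both fractions (-0.82 in crypts and -0.50 in IEC on the log2 scale), as was Hk2 (-0.42 and -0.80), and Hkdc1 was higher (0.41 and 0.36) but lost its call in both fractions under total-count scaling. In the polyol route, which makes fructose from glucose, Sord was higher by 0.44 and 1.38, losing its crypt call under total counts, and Akr1b3 was at 0.06 in crypts (called lower at -0.26 under total counts) and lower in IEC (-0.33). Of the carbohydrate-sensing regulators and targets 3 of 6 were higher and 1 lower in each fraction, but 1 higher and 4 lower in crypts and 2 higher and 3 lower in IEC under total-count scaling. Pklr, a target of the ChREBP factor, was higher by 0.93 and 0.84, and Txnip, another of its known targets, was lower (-0.22 and -0.21). Mlxipl, which encodes ChREBP, was called higher in crypts (0.40, not called under total-count scaling) and was at -0.03 in IEC (called lower under that scaling, at -0.25). Of 6 epithelial transcription factors, Hnf4g was called higher in both fractions (0.21 in crypts, where total-count scaling gave -0.11 and no call, and 0.62 in IEC). Gata4 was at 0.28 in crypts (-0.04 under total-count scaling), without a call, and was called higher in IEC (0.80; 0.58 and no call under that scaling). Hnf4a was lower in IEC (-0.30) and was called lower in crypts only under total-count scaling (-0.32). Neither of the 2 tested sweet taste genes was called.

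Markers of cell type and gut region moved with these changes, and their part in the results was not tested. Enterocyte markers were higher in 8 of 8 genes in both fractions, with medians of 1.24 in crypts and 1.39 in IEC, above the 1.07 of the hexose genes. Under total-count scaling 7 of 8 were called higher in each fraction. The markers summed to 10295 to 10506 CPM of all counts in hepatectomy crypts and to 4988 to 5351 in sham crypts, and in IEC to 55408 to 59156 and 25246 to 25777. Proximal small intestine markers, from the stretch where most hexose uptake takes place, were higher in 5 of 6 genes in crypts (723 to 737 CPM against 466 to 506) and in 6 of 6 in IEC (1819 to 1857 against 1057 to 1072; 5 of 6 under total-count scaling). Of 5 distal markers, 2 were higher and 3 lower in crypts (427 to 433 CPM against 633 to 644) and 1 higher and 2 lower in IEC (464 to 468 against 686 to 711), and under total-count scaling none was higher (0 in each fraction). Crypt stem cell genes were lower in 3 of 4 cases in crypts (1035 to 1044 CPM against 2232 to 2314) and 2 of 4 in IEC (611 to 634 against 1490 to 1504; 4 of 4 under total-count scaling). Proliferation genes were lower in 3 of 4 cases in crypts and 4 of 4 in IEC, Paneth cell genes in 4 of 4 and 3 of 4, and goblet cell genes in 4 of 4 and 2 of 4, with 1 Paneth and 1 goblet gene higher in IEC. Total-count scaling added 1 lower proliferation gene in crypts and ended the higher goblet call. No marker of these lists was at 0 in any of the 4 groups.

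In the libraries labelled liver, day 20 had far less Slc5a1 and far more Slc2a2, Khk and Tkfc than day 0. Slc2a2, the hepatocyte glucose carrier, stood at 4.04, 4.37 and 3.96 TMM-normalised CPM in the 3 day 0 libraries and at 466, 485 and 480 at day 20. Slc5a1 went the other way, from 128, 149 and 141 to 3.35, 3.09 and 2.85. Khk rose from 42.8, 34.8 and 31.9 to 813, 765 and 825. All day 20 libraries lay close together and far from day 0 in these 3 genes. Tkfc stood at 37.7, 42.5 and 42.1 at day 0 and at 380, 356 and 403 at day 20. Slc2a1 fell from 41, 29.2 and 27.2 to 19.3, 19.5 and 19.3. After TMM scaling Slc2a5 did not separate the days, with 10.6, 9.31 and 9.17 at day 0 and 9.93, 8.43 and 10.9 at day 20. In CPM of all counts it stood at 11.8 to 12 at day 0 and at 5.5 to 7.1 at day 20. Slc2a7 had few counts at day 0 (5, 15 and 10) and 0 in each library at day 20.

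The fitted changes of day 20 against day 0 were 116-fold for Slc2a2 (log2 fold change 6.85 ± 0.61 SE, adjusted p = 3.1e-07), 21.9-fold for Khk (4.46 ± 0.24) and 9.31-fold for Tkfc (3.22 ± 0.24). Slc5a1 was 45-fold lower (-5.49 ± 0.32, adjusted p = 4.8e-09) and Slc2a1 was lower by 0.75 on the log2 scale (-0.75 ± 0.18, adjusted p = 0.002). Slc2a7 was called lower (adjusted p = 0.012). It passed the filter on low counts only through day 0 and day 10 libraries, so its call could go only this way and is a description. Taking 3 counts per library as the floor for a count of 0, it was at least 2.03-fold lower. It was too scarce to be tested under the stricter filter or with only these days fitted, which leaves 2 members lower. With 3 members higher and 3 lower, Slc2a7 included, the background was 33.3% of all genes higher and 38.1% lower. Slc2a5 was not called, at 0.01 ± 0.33 with TMM (adjusted p = 0.98) and at -0.89 with total-count scaling (adjusted p = 0.099), which moves the median of all genes from -0.164 to -1.072. Of all calls 46.7% were higher, and 25.6% when scaled by total counts. No call of a member changed under that scaling. Hepatocyte markers moved with Slc2a2, Khk and Tkfc: 8 of 8 were higher at day 20 (Cps1 was 0.08 and not called under total-count scaling). Crypt stem cell, Paneth and goblet markers moved with Slc5a1: the Paneth genes summed to 31795 to 37268 CPM of all counts at day 0 and 192 to 255 at day 20, and the goblet genes to 2566 to 2814 and 13.7 to 19.7. Of 8 enterocyte markers 4 were higher and 3 lower at day 20. Under total-count scaling Apoa4 (adjusted p = 0.1) and Anpep (adjusted p = 0.97) lost their higher calls. The 8 markers had a sum of 1114 to 1150 CPM at day 0 and 19913 to 21192 at day 20. Alpi (-6.84), Vil1 (-6.47) and Sis (-5.09) were lower, as Slc5a1 was, and the rise of the sum held Fabp1 (7.26) and Apoa1 (6.74), which hepatocytes make as well. Marker content and day cannot be told apart here.

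**Figure D3:**
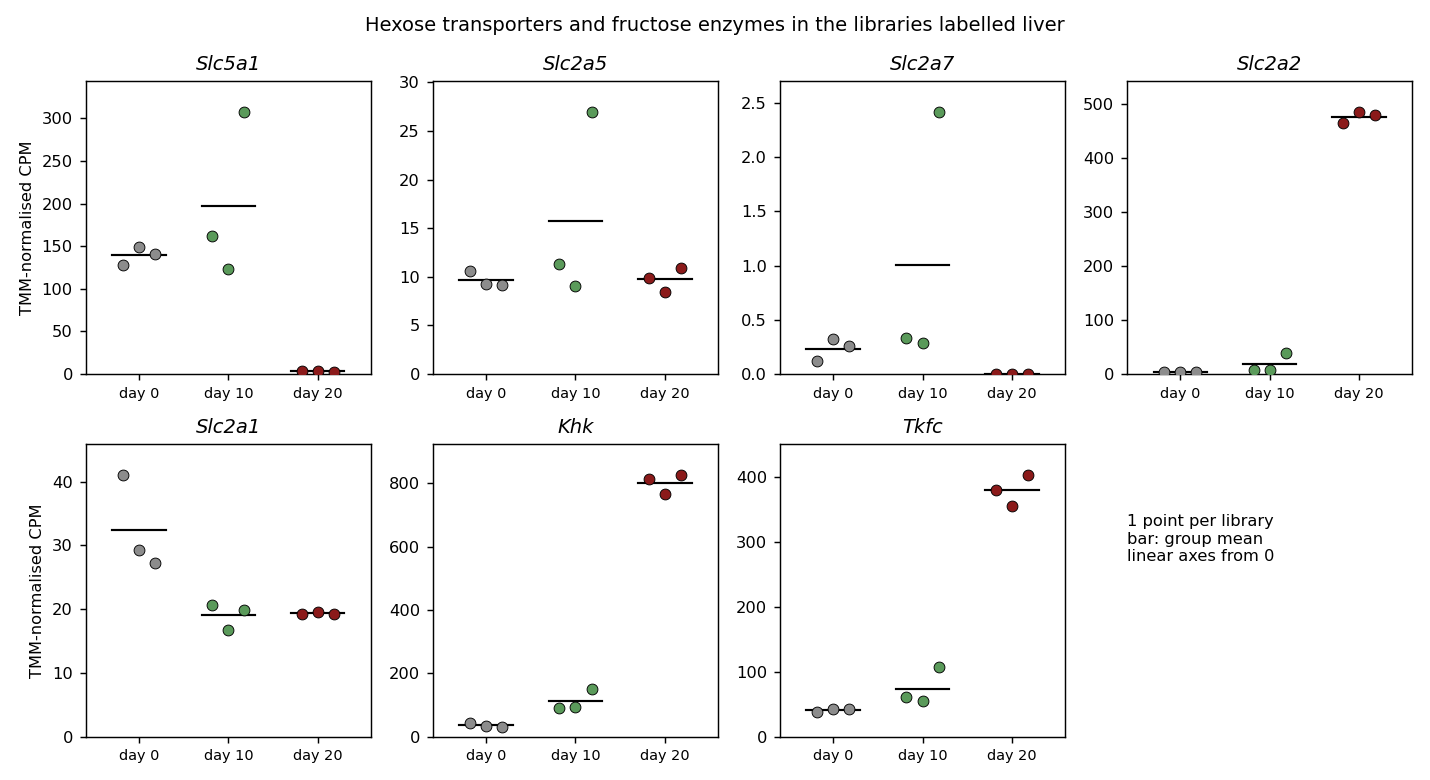
TMM-normalised CPM of the 7 genes in the 9 libraries labelled liver, 1 panel per gene with its own axis from 0. Points are libraries and bars are means of the 3 libraries of a day. Slc2a2, Khk and Tkfc are highest at day 20, Slc5a1 is near 3 there, and 1 day 10 library, replicate 3, lies above the other day 10 libraries in 6 of the panels.

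Between day 0 and day 10, Khk, Slc2a2 and Tkfc were called higher and Slc2a1 lower, and 1 day 10 library stood above the others in most members. Khk stood at 92, 92.7 and 152 at day 10, above all day 0 libraries, and Slc2a1 at 20.6, 16.7 and 19.8, below all of them. Slc2a2 stood at 7.96, 7.05 and 39.3, Tkfc at 60.9, 55 and 107, and Slc5a1 at 162, 123 and 307. Slc2a5 stood at 11.3, 9.05 and 26.9 and Slc2a7 at 0.333, 0.285 and 2.41. The third value, that of replicate 3, was the highest in 6 of the 7 genes, Slc2a1 being the exception. Relative to the mean of replicates 1 and 2, replicate 3 was 7.8-fold in Slc2a7, 5.23-fold in Slc2a2, 2.65-fold in Slc2a5, 2.15-fold in Slc5a1, 1.85-fold in Tkfc, 1.65-fold in Khk and 1.06-fold in Slc2a1. Its enterocyte markers moved the same way, with a sum of 4692 CPM of all counts against 1158 and 1089, as did the distal gut markers, with 718 against 91.3 and 71.2. Hepatocyte markers were higher there too, with 5239 against 2337 and 2041, as were proximal gut markers, with 518 against 305 and 271. Replicate 3 is also the least deep library, and the part of these values in the results was not tested.

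By the test, Khk was higher at day 10 by 1.62 ± 0.22 on the log2 scale (SE; adjusted p = 5.6e-04), Slc2a2 by 2.12 ± 0.51 (adjusted p = 0.0083) and Tkfc by 0.87 ± 0.22 (adjusted p = 0.01). Slc2a1 was lower (-0.77 ± 0.18, adjusted p = 0.0069). Slc2a7 (2.05 ± 0.9, adjusted p = 0.086), Slc2a5 (0.69 ± 0.32, adjusted p = 0.097) and Slc5a1 (0.50 ± 0.26, adjusted p = 0.13) did not pass, and these 3 overlapped between the days, whereas 51.9% of all genes did not. The count of 3 members higher and 1 lower stood against 24.7% and 18.8% of all genes. Without replicate 3, Khk was at 1.30 (adjusted p = 9.1e-06), Slc2a2 at 0.83 (adjusted p = 7.9e-04), Tkfc at 0.47 (adjusted p = 0.017) and Slc2a1 at -0.84 (adjusted p = 0.0037), so all 4 calls held, with a far smaller change in Slc2a2. Slc5a1 was then at -0.01, Slc2a5 at 0.03 and Slc2a7 at 0.35. Without replicate 2 of day 10, Slc5a1 (0.72, adjusted p = 0.029) and Slc2a5 (0.94, adjusted p = 0.03) were called higher, and without replicate 1 of day 10 so was Slc2a7 (2.28, adjusted p = 0.044). Tkfc lost its call under total-count scaling (1.00, adjusted p = 0.059).

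Day 20 against day 10 shares its libraries with both contrasts above, and 3 members were higher and 2 lower, against 30.8% and 40.3% of all genes. Slc2a2 was higher by 4.73 ± 0.55 on the log2 scale (6.0 without replicate 3 of day 10), Khk by 2.84 ± 0.22 and Tkfc by 2.35 ± 0.23. Slc5a1 fell by 5.99 on the log2 scale (-5.99 ± 0.33), and Slc2a7 was at least 8.7-fold lower, or at least 2.67-fold without replicate 3. Slc2a7 was too scarce to be tested under the stricter filter or with only these days fitted, which leaves 1 member lower. Its call here could also go only this way, since no day 20 library helped it pass the filter. Slc2a5 (-0.68 ± 0.33, adjusted p = 0.077) and Slc2a1 (0.02 ± 0.18, adjusted p = 0.91) were not called. Both were called lower with total-count scaling, Slc2a5 at -1.78 and Slc2a1 at -0.95, which moves the median of all genes from -0.206 to -1.169. Without replicate 2 of day 10, Slc2a5 was called lower (-0.94, adjusted p = 0.013). Of all calls 43.4% were higher, and 19.1% when scaled by total counts.

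Related genes moved in both directions at day 20 against day 0, where 33.3% of all genes were called higher and 38.1% lower. All 4 glucose release genes were higher: G6pc by 7.92, Pck1 by 6.95, Fbp1 by 5.35 and Slc37a4 by 3.0 on the log2 scale. In the hexokinase list Gckr (7.67) and Hk3 (4.24) were higher, and Hkdc1 (-5.60) and Hk2 (-5.14) were lower. In later fructose steps 3 of 6 were higher, namely Glyctk (6.38), Aldh2 (4.44) and Aldoc (2.15), and 2 were lower, Aldh1b1 (-4.14) and Aldoa (-1.33). In the polyol route Sord was higher (3.48) and Akr1b3 lower (-3.34). Other SGLT genes were lower in 5 of 6 cases, Atp1b1 was lower (-2.42), and of the other GLUT genes Slc2a9 (3.57) and Slc2a8 (1.75) were higher and Slc2a10 (-3.94) was lower. Of the carbohydrate-sensing genes Pklr (2.56) and Mlxipl (1.83) were higher, and Mlxip (-3.20), Txnip (-1.98) and Arrdc4 (-0.98) were lower. Total-count scaling added lower calls at day 20 for Tpi1 (-1.07), Hk1 (-1.46), Mlx (-1.16), Slc2a13 (-1.64) and Slc5a10 (-2.93). At day 10 against day 0, 3 of 4 glucose release genes and 2 of 6 other SGLT genes were higher. Of 6 later fructose genes 1 was higher and 2 were lower, and 6 of 8 hepatocyte and 6 of 8 enterocyte markers were higher. These day 10 counts stand against 24.7% of all genes higher and 18.8% lower. Under total-count scaling the day 10 calls of G6pc, Fbp1, Slc5a11, Glyctk, Tpi1 and Aldh1b1 were lost. So were those of the hepatocyte genes Ttr, Apoa2, Serpina1c, Fgb and Tat and the enterocyte genes Alpi and Apoa1.

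**Figure D4:**
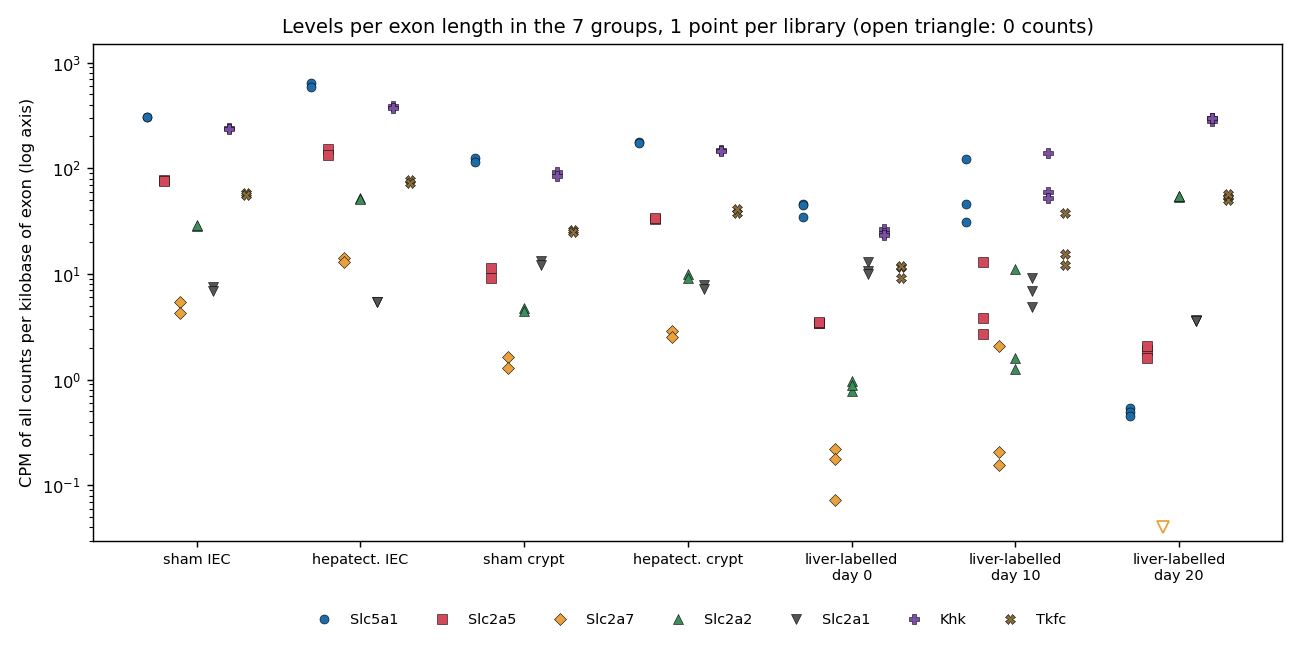
Level of each of the 7 genes in the 7 groups as CPM of all counts per kilobase of exon, on a log axis, with 1 point per library. Open triangles mark a count of 0, placed at the foot of the axis. Slc5a1 and Khk lead in the 4 intestinal groups, and Khk, Slc2a2 and Tkfc lead at day 20.

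To compare the genes with each other, levels were divided by exon length (1.8 kb for Khk to 5.75 kb for Slc2a2) and given as mean CPM of all counts per kilobase. In sham IEC the order was Slc5a1 (305), Khk (239), Slc2a5 (76.9), Tkfc (57.6), Slc2a2 (28.8), Slc2a1 (7.23) and Slc2a7 (4.82). Hepatectomy IEC kept Slc5a1 (614) and Khk (379) on top, and Slc2a7 (13.6) there stood above Slc2a1 (5.44). In sham crypts Slc5a1 (119) and Khk (88.1) led again, and Slc2a1 (12.8) stood above Slc2a5 (10.2) and Slc2a2 (4.63). In hepatectomy crypts Slc2a5 (33.7) and Slc2a2 (9.62) stood above Slc2a1 (7.46). The fructose entry carrier Slc2a5 and the exit carrier Slc2a2 thus passed the basal carrier Slc2a1 in crypts only in the hepatectomy libraries. At day 20, Khk (291), Slc2a2 (54.1) and Tkfc (53.7) led, with Slc2a1 at 3.61, Slc2a5 at 1.87, Slc5a1 at 0.493 and Slc2a7 at 0.

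Ratios of these per-kilobase levels within a library show how the balance moved. Slc5a1 over Slc2a2, entry over exit of glucose in the enterocyte, was 10.7 and 10.5 in sham IEC, 12.2 and 11.4 in hepatectomy IEC, 26.1 and 25.5 in sham crypts and 17.5 and 18.8 in hepatectomy crypts. It was 44.5, 47.8 and 50 at day 0 and 28.6, 24.4 and 11 at day 10. At day 20 it was 0.0101, 0.00895 and 0.00832. This ratio was thus lower in hepatectomy crypts than in sham crypts, and higher in hepatectomy IEC than in sham IEC. Khk over Slc2a5, the first enzyme over the fructose carrier, was 3.13 and 3.08 in sham IEC, 2.58 and 2.77 in hepatectomy IEC, 8.18 and 9.14 in sham crypts and 4.45 and 4.29 in hepatectomy crypts, so it was lower after hepatectomy in each fraction. At day 20 it was 155, 172 and 143. Khk over Tkfc moved less, from 1.95 at the lowest in day 0 to 5.52 at the highest in day 20.

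Across all 7 groups, levels of one gene were ordered by mean CPM of all counts, which sets 2 separately made tables side by side without a test. Slc2a2 was highest at day 20 (311), next to hepatectomy IEC (299), then sham IEC (166), hepatectomy crypts (55.3), day 10 (26.8), sham crypts (26.6) and day 0 (5.06), and the libraries of day 10 overlapped those of both crypt groups. Khk was highest in hepatectomy IEC (681), above day 20 (523), sham IEC (429) and hepatectomy crypts (265), and sham crypts (158) and day 10 (150) overlapped, above day 0 (44.5). Tkfc ran from 347 in hepatectomy IEC to 50.2 at day 0, with overlap between sham IEC (266) and day 20 (248) and between sham crypts (118) and day 10 (100). The hepatectomy IEC libraries thus lay above those of day 20 in Khk and Tkfc and below them in Slc2a2. Slc5a1, Slc2a5 and Slc2a7 shared one order: hepatectomy IEC (2521, 484 and 25.4), sham IEC (1250, 262 and 8.99), hepatectomy crypts (715, 115 and 5.03), sham crypts (490, 34.8 and 2.74), day 10 (271, 22.1 and 1.53), day 0 (172, 11.9 and 0.295) and day 20 (2.02, 6.37 and 0). In all 3, day 10 overlapped both of its neighbours. Slc2a1 had a narrow range, from 44.8 in sham crypts, which overlapped day 0 (39.4), to 12.6 at day 20, and hepatectomy crypts (26.1), sham IEC (25.4), day 10 (24.4) and hepatectomy IEC (19.1) overlapped in that order in between.

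The genes whose pattern was most like that of each member were found by Pearson's r of log2 TMM-normalised CPM, as a description with no test. Over the 8 intestinal libraries, among 9368 genes with a mean of at least 5 CPM, Slc5a1 was most like Cst6 (r = 0.9997), Cat (0.9997) and Sdcbp2 (0.9992), and Khk was most like Rbp2 (0.9997), a retinol-binding protein of enterocytes, Clic5 (0.9994) and Cdkn1a (0.9994). Slc2a2 was most like Asah2 (0.9993), and Sema6a (0.9991) was close to it too. Slc2a5 and Tkfc were among each other's 3 most alike genes (0.9981), with Plb1 (0.9983) and Prxl2b (0.9978) beside Slc2a5 and Gpi1 (0.9977) and Tfg (0.9977) beside Tkfc. Slc2a7 was most like Tm6sf2 (0.9982), Ttyh2 (0.9980) and Arsa (0.9979). Such values are common in 4 groups that lie far apart: r reached 0.99 with 287 genes for Slc5a1, 208 for Slc2a7, 165 for Khk, 132 for Slc2a2, 72 for Tkfc and 52 for Slc2a5. Slc2a1 had 1 such gene, Rasa4 (0.9931), followed by Rfc5 (0.9893), a DNA replication factor subunit, and Ddx47 (0.9889). Over the 9 libraries labelled liver, Tkfc and Slc2a2 were alike (0.9979), Slc2a2 was most like Colec10 (0.9985), Khk most like Vwce (0.9975), Tkfc most like Kcnn2 (0.9980), Slc5a1 most like Pdzd3 (0.9972) and Slc2a1 most like Mtch2 (0.9939). Slc2a5 (Dhrs11, 0.9025) and Slc2a7 (Slc43a2, 0.9451) had no gene at 0.99 there. The points of each table share the same libraries and their depths.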

How the data were processed

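Bulk RNA was sequenced from 8 small intestinal libraries and 9 libraries labelled liver. Per the submitters' processing notes, STAR and Partek were used with mm10, with no versions. The deposited intestinal files hold expected counts per gene symbol (36.7% of values are not whole), which were rounded to whole numbers. The deposited files labelled liver hold counts per gene identifier, of which 24570 were matched to symbols and 24 were not. The unmatched hold 3.93 to 22.1% of a library's counts and stay in the totals. The program that counted reads, and its strand setting, were not given in the sources used here.

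Each tissue was fitted alone in R 4.3.3 with edgeR 4.0.16 (TMM, filterByExpr at min.count 10 and min.total.count 15, quasi-likelihood F test, Benjamini-Hochberg adjustment, calls under 0.05), leaving 18207 and 16694 genes and giving 8 comparisons. No library was left out, no replicate block was used, and each group has 2 or 3 libraries, which limits the precision. The members and lists were chosen with earlier results of these data known. The named genes are the 7 members in every comparison, up to 4 genes with the smallest p of each related list, and the 3 genes most alike (a pseudocount of 0.5 CPM before log2, with predicted gene models, mitochondrial genes and pseudogenes left out). Some genes that this rule or the lists name are not reported here, and list counts are over the rest. A count of 0 was bounded by 3 counts per library, for counting error only.

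Tried as alternatives were RLE size factors, DESeq2 1.42.0, no filter on low counts, a filter that asks for 1 CPM or more in each library of a group and a group mean of 5 CPM or more, only the groups compared, a replicate block, leaving out each library, and a log2 fold change of at least 1. Scaling by total counts without TMM was added after the data were seen. Where a left-out library leaves 1 in a group, that library is assumed to vary like the others. The fits were tested on simulated data. Python 3.11.15 and matplotlib 3.10.9 drew the figures.

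Replicate numbers were not used as pairs, because the labels do not say that a number marks a shared animal. The correlations of deviations of same-numbered libraries ran from -0.0301 to 0.0421 and none passed 0.1, which cannot tell whether the numbers mark pairs.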

Additional observations from a re-analysis of the deposited data

Results flagged for a closer look

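These results were singled out because the hepatectomy effect in crypts and that in IEC differed by the interaction test (edgeR's quasi-likelihood test, adjusted p under 0.05). Differences are crypts minus IEC on the log2 scale. Groups of 2 and 3 libraries were not screened for outlying samples.

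Among the hexose genes the difference was 0.95 for Slc2a5, 0.36 for Tkfc, 0.31 for Slc2a2, 0.18 for Khk and -0.36 for Slc5a1.

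Among related carriers, Slc5a11 changed by 1.36 in crypts and 1.03 in IEC (difference 0.34), Slc5a4b by 1.41 and 2.18 (-0.77) and Slc5a9 by 0.54 and 1.19 (-0.65).

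Of 4 glucose release genes, 3 changed more in IEC and Fbp1 was not called (0.94 in crypts and 0.87 in IEC): Pck1 had a difference of -0.88 (adjusted p = 1.7e-04), G6pc of -0.51 and Slc37a4 of -0.45. In the polyol route Sord had -0.94 (adjusted p = 2.8e-06) and Akr1b3 0.39. Aldoc had -0.96 (adjusted p = 8.6e-04).

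Hk2 was lower in both fractions, more so in IEC (difference 0.38). Among regulators, Mlxipl changed by 0.40 in crypts and -0.03 in IEC (0.43, adjusted p = 8.3e-04), Hnf4a had a difference of 0.29, Hnf4g of -0.41, Arrdc4 of -0.43 and Mlx of -0.23. The call of Mlx was lost with RLE size factors (adjusted p = 0.064). Under total-count scaling the calls of Slc5a11 (0.23, adjusted p = 0.14), Akr1b3 (0.28, adjusted p = 0.15), Hk2 (0.28, adjusted p = 0.12) and Hnf4a (0.19, adjusted p = 0.15) were lost, as were those of Slc2a2, Tkfc and Khk.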

How the results depend on the processing

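These results are limited by few libraries per group, by the mix of cells and, for Slc2a7 in the libraries labelled liver (0 to 50 counts), by depth. Of the 7 hexose genes, those called higher after hepatectomy numbered 6 in each fraction under every alternative, leaving out each library included, except that a log2 fold change of at least 1 left 4 in each, and no member's change in either hepatectomy comparison changed direction. The cause of each change below was not tested, except that a demand on size lowers a count by construction.

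With a log2 fold change of at least 1 besides the adjusted p, genes called higher and lower were 1040 and 556 of all in crypts (3493 and 3329 without it), 1035 and 396 in IEC, 313 and 398 for the difference, 399 and 1247 for crypts against IEC in sham, 818 and 1944 after hepatectomy, and 384 lower at day 10 against day 0. Members called lower were then 0 in crypts and at day 10, members called in the difference were 0 and 0, and members called higher in crypts against IEC were 0 in sham and 0 after hepatectomy.

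Scaled by total counts, all genes called higher and lower were 1564 and 8245 in crypts, 2083 and 6027 in IEC, 8597 and 1742 for crypts against IEC in sham, 7270 and 3073 after hepatectomy, 2542 and 1343 for day 10 against day 0, and 2410 and 10230 for day 20 against day 10. Genes called higher were 1019 for the difference and 3198 for day 20 against day 0. Members called were 1 lower in IEC, 1 higher and 2 lower in the difference and 4 lower for day 20 against day 10. Slc2a5 turned to -0.89 for day 20 against day 0 and Slc2a1 to -0.95 for day 20 against day 10.

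With DESeq2, 2176 genes were lower in crypts and 0 members were higher in crypts against IEC after hepatectomy, as with the stricter filter and with only the groups compared (0 in each). With no filter, 1 member was lower in IEC and Slc2a5 at day 20 against day 0 was at -0.09. With the stricter filter, 2 members were lower in the difference, 2623 genes were higher and 1800 lower at day 10 against day 0, and 1 member and 4437 genes were lower for day 20 against day 10. With only the groups compared, 2136 genes were higher at day 10 against day 0, 1 member was lower for day 20 against day 10, and Slc2a5 was at -0.08 for day 20 against day 0. Higher calls at day 10 against day 0 made up 56.8% of calls, and 38.7% with only those groups.

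Leaving out each library gave 2215 to 3371 genes lower in crypts, 0 to 1 member lower in IEC, 1 to 2 members and 999 to 1498 genes lower in the difference, 0 to 1 member higher in crypts against IEC after hepatectomy, and 3 to 5 members and 2323 to 4566 genes higher at day 10 against day 0. The low ends of 2215 and 999 came without replicate 1 of sham crypts, and 2323, 2518 and 2681 without replicates 1, 2 and 3 of day 0. Slc2a5 ranged from -0.10 to 0.09 for day 20 against day 0, Slc2a1 from -0.05 to 0.20 for day 20 against day 10 and Slc5a1 from -0.01 to 0.72 for day 10 against day 0.

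The replicate block, which treats equal replicate numbers as pairs although the labels do not say that they are, gave 3383 genes higher and 3202 lower in crypts. It ended the call of Khk in the difference (0.18, adjusted p = 0.057), put Slc2a5 at -0.02 for day 20 against day 0 and changed no other member's call. Of the intestinal libraries 8 of 8, and of those labelled liver 6 of 9, correlated best with a library of their own number. In groups of 2 the deviations are mirror images, so replicates 1 and 2 give the same correlations and the 8 are not separate results. These counts cannot tell whether the numbers mark pairs.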
